A study of Mus musculus with 39 samples.

Results

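Mbp, Mog, Mag, Mobp, Cnp, Cldn11 and Ermn are 7 genes of the myelin sheath and of the oligodendrocytes that make it, and they are described here in RNA from CD11b+ microglia. They were taken by gene symbol, as 7 of the 46333 genes in the female table and 7 of the 54532 genes in the male table. The study exposed wild type (WT) and 5XFAD mice to chronic intermittent hypoxia (CIH), a model of sleep-disordered breathing, or to normoxia (NX), and asked how exposure and genotype alter the transcriptome of microglia. There were 39 RNA libraries (19 female, 20 male), and each of the 8 groups had 5 apart from F WT NX with 4. Groups are named by sex (F or M), genotype and treatment.

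Per the labels, CIH cycled oxygen between 21% and 6.5% at intervals of 90 s for 8 h per day, and NX mice stayed at 21%. The methods of the study give a lower oxygen level and more hours, and the difference could not be settled. Exposure began at 4 months of age in every group. Females were taken at 10 months and males at 8 months, so sex, age and length of exposure cannot be told apart and no test between the sexes was made. 5XFAD mice carry human transgenes with familial Alzheimer's disease mutations, driven by a promoter active in neurons, and the cells sequenced are therefore not the main cells that express them. Cells came from the cerebrum. Before the CD11b beads were applied, a Percoll step was used to separate myelin from the cells. The part of this step in the levels described here was not tested.

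Oligodendrocytes wrap axons in layers of membrane that are pressed together into compact myelin. MBP holds the inner faces of the membrane together, MOBP sits with it in compact myelin, MAG faces the axon on the innermost layer, MOG lies on the outermost surface, claudin-11 (Cldn11) forms the tight junctions between layers, CNP keeps cytoplasmic channels open, and ermin (Ermn) is a cytoskeletal protein of late oligodendrocyte maturation. Transcription of this gene program in oligodendrocytes depends on the factors SOX10 and MYRF. Microglia engulf myelin, and mRNA of Mbp and Mobp is carried into the myelin sheath for local translation. The Mbp gene also gives longer golli transcripts, whose reads gene counts do not separate from those of the myelin forms.

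The 7 genes lie on 7 chromosomes of GRCm38. Mbp is on chromosome 18. Mobp spans chr9:120149707-120181484, Mag spans chr7:30899176-30914873 and Mog spans chr17:37010743-37023398. Cnp spans chr11:100574904-100591729, Cldn11 spans chr3:31149920-31164324 and Ermn spans chr2:58045113-58052864. An exon of Cnp overlaps an exon of Dnajc7 on the opposite strand, an exon of Ermn overlaps Galnt5 on the opposite strand, and an exon of Mobp overlaps the noncoding gene Gm38642 on the same strand. The strand setting of the counting is not given in the sources used here, so reads of these overlaps cannot be assigned to a gene with certainty.

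Upstream sequences from RefSeq (GRCm38.p6) are shown for Mobp, which was called higher in 5XFAD males under both treatments, for Mag, which had the lower values in 5XFAD females, and for Mog, which was near 0 in females. Capitals mark matches, on either strand, to ACAAAG, a core motif bound by SOX factors (CTTTGT on the other strand). Sequences run 5′ to 3′ along the gene, from chr9:120149492-120149691 on the plus strand, chr7:30914923-30915172 on the minus strand and chr17:37023399-37023648 on the minus strand.

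Mobp: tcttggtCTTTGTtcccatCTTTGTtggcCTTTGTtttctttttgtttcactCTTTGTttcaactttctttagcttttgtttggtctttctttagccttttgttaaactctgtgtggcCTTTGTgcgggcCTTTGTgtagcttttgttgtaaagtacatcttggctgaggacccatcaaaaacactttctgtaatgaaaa
Mag: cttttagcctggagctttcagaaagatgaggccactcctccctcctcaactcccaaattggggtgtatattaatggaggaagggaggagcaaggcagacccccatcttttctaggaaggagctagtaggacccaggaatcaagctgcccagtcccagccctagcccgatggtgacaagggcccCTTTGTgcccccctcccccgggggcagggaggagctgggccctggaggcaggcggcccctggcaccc
Mog: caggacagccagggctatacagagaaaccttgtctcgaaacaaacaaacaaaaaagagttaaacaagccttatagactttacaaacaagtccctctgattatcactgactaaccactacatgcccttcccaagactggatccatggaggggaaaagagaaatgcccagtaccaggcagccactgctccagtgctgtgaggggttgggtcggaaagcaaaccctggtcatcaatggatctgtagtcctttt

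The Mobp stretch of 200 bases held 6 matches to ACAAAG, all written as CTTTGT. Over 32817 windows of the 250 bases before RefSeq start sites, 16.5% held at least 1 match, 6 was the highest number, and 2 windows held 5 or more. The Mag window held 1 match and the Mog window held 0. RefSeq lists 3 start sites for Mag, and the window shown is that of one. The window of another, at chr7:30914864-30915113, overlaps it and also held 1 match, and the window of the third, at chr7:30914322-30914571, held 0. The related core ACAATG, present in 10.7% of windows, was found in none of the 3 stretches. The MYRF core CTGGNAC, present in 16.1% of windows, was found 0 times in the Mobp stretch, 2 times in the Mag window (2 and 0 times in the other Mag windows) and 1 time in the Mog window, and no match overlapped another. A match is a description of letters, and binding was not measured.

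Depth was 14731683 to 25906121 counts in the female libraries and 13457293 to 23095627 counts in the male ones. Levels are given as CPM, each count set against the total of its library after TMM scaling over the libraries of the same sex. The microglial marker P2ry12 stood at 1481 to 4860 CPM in every library. Pdgfra, which marks oligodendrocyte precursors, reached at most 2.72 CPM and Sox10 at most 6.24 CPM, and these values are not set against each other since gene length was not taken into account. 1 library stood apart from its label: F 5XFAD NX 4 had 14.9 CPM of Cst7, a gene of plaque-associated microglia, where the other 4 libraries of F 5XFAD NX had 1168 to 2488 CPM and F WT NX had 11.9 to 17.7 CPM. The methods of the study report a female normoxia sample as an outlier in several comparisons and do not name it. Whether it was F 5XFAD NX 4 could not be settled. Differences that rest on the library labelled F 5XFAD NX 4 are given with it, and the larger changes without it stand beside them. In bulk RNA, fewer cells of a type and less RNA per cell cannot be told apart.

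Genes are compared with each other only per length, as FPKM (fragments per kilobase of gene length and per sequencing depth, as deposited). In females the order of the medians over 19 libraries was Mbp (37.7 FPKM), Cnp (25.3), Mag (14.6), Mobp (4.90), Cldn11 (1.52), Ermn (0.678) and Mog (0.226). In males, over 20 libraries, it was Cnp (20.7 FPKM), Mbp (11.3), Mag (10.4), Cldn11 (2.96), Mog (1.77), Mobp (1.69) and Ermn (0.295). The order of some neighbours differed with genotype. In males Mbp was below Mag in all 10 WT libraries and above it in all 10 5XFAD libraries. In females Mbp exceeded Cnp in 2 of 9 WT and 9 of 10 5XFAD libraries. Male Mog exceeded Mobp in 7 of 10 WT and 2 of 10 5XFAD libraries. The tables use unequal gene lengths, with 2850 bases for Mbp in the female table and 8403 bases in the male table, so levels in FPKM are not set against each other between the sexes.

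**Figure D1:**
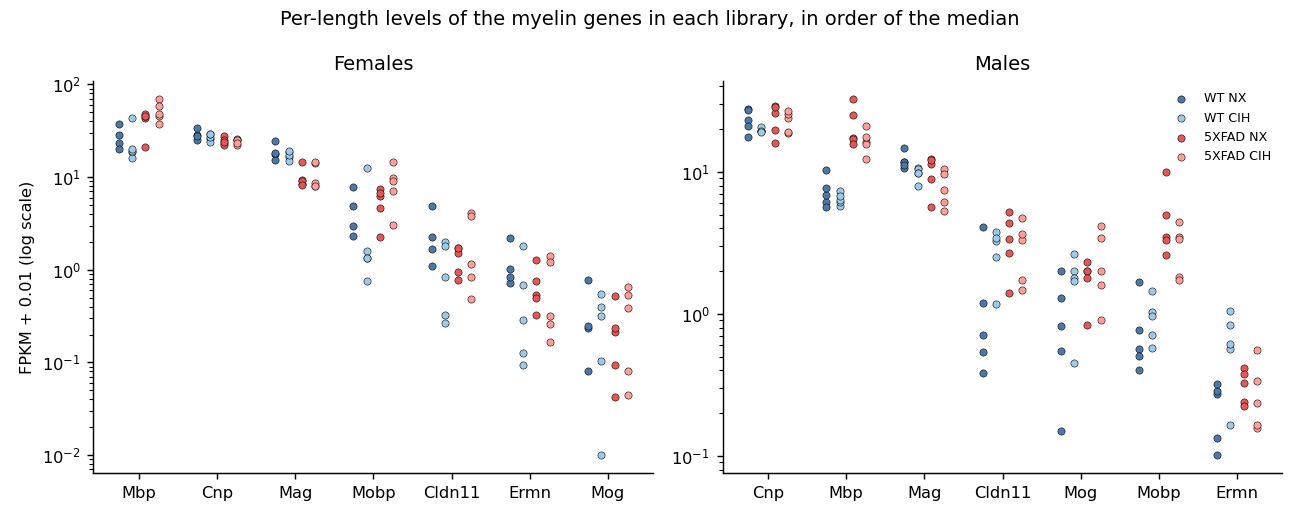
Per-length levels (FPKM + 0.01, log axis) of the 7 genes in each library, for females (left) and males (right), in order of the median. Points are libraries, coloured by group, and Mbp, Cnp and Mag lie above the other genes in the medians of both sexes (at least 10.4 FPKM).

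A gene was called where the edgeR quasi-likelihood test gave a Benjamini-Hochberg FDR below 0.05 over all genes tested and the absolute log2FC was above 1, and log2FC is positive where the group named second was higher. In WT NX vs 5XFAD NX of females, 0 of the 6 members that passed the filter on low counts were called, against 5.99% of all genes tested (869 genes). That background rests on single libraries, with 27 genes called without F WT NX 3 and 1880 without F 5XFAD NX 4, and each of the 9 fits that left out a library moved it by more than 1.5 times. No member was called in any of the 9. In WT CIH vs 5XFAD CIH of females, 1 of 6 was called (Mbp, higher), against 13% of all genes in either direction and 8.83% higher. In males, 2 of 7 were called in WT NX vs 5XFAD NX (Mbp and Mobp, higher), against 8.25% in either direction and 5.94% higher, and Mbp and Mobp were also called higher in WT CIH vs 5XFAD CIH, against 18.7% and 11.8%. In WT NX vs WT CIH of males 1 of 7 was called (Ermn, higher), against 2.51% and 1.63%, where the 376 genes behind the first share ranged from 267 to 621 (without M WT NX 1) and the members called from 0 to 2 with a library left out. With 6 or 7 members tested a single gene is a large share, and these counts are read as counts of genes, not as a result about the members as a group.

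No member was called in the treatment comparisons of females, in 5XFAD NX vs 5XFAD CIH of males or in the interaction of genotype and treatment of either sex, against 0% of all genes in each. Without M 5XFAD NX 1 the male interaction called 478 genes and still 0 members. The quasi-likelihood test at an unadjusted p below 0.05 gave 565 genes in WT NX vs WT CIH and 470 in 5XFAD NX vs 5XFAD CIH of females, 473 in 5XFAD NX vs 5XFAD CIH of males, and 589 and 3857 genes in the interactions of females and males. DESeq2 and edgeR's likelihood ratio test called 0 members in each of these 5 comparisons, with 0 genes in the female ones, 1 gene each in 5XFAD NX vs 5XFAD CIH of males, and 381 and 175 genes in the male interaction. The median log2FC over the members tested was −0.38 in WT NX vs 5XFAD NX and 0.77 in WT CIH vs 5XFAD CIH of females, and 0.91 and 0.24 in males. Over all genes tested it was −0.02 in both female comparisons, and 0.02 and −0.06 in males. With a library left out, the median over the members ranged from −0.51 to −0.067 (without F WT NX 3) and from 0.40 (without F 5XFAD CIH 2) to 1.42 (without F WT CIH 3) in females, and from 0.63 to 1.37 (without M WT NX 5) and from 0.18 to 0.31 in males.

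**Figure D2:**
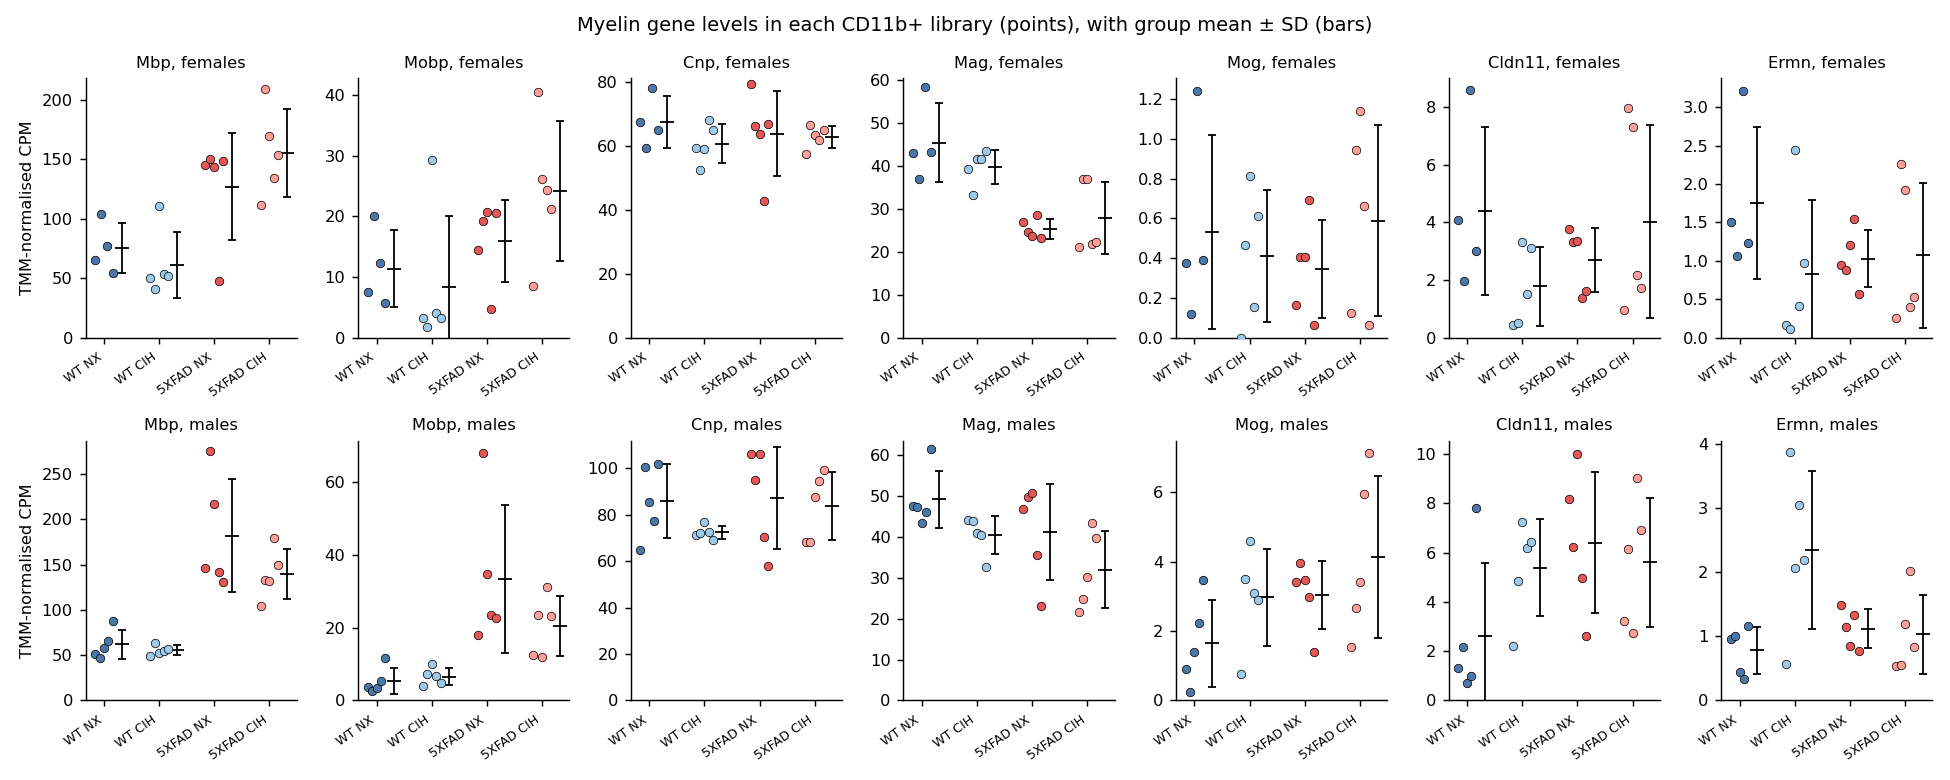
TMM-normalised CPM of each of the 7 genes in each library, with females in the upper row and males in the lower row. Points are libraries and bars are the group mean ± SD, cut off at 0. For Mbp, 1 library of F 5XFAD NX (47.5 CPM) lies with the WT groups and the other 4 lie at 144 to 150.0 CPM.

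Mbp, the main protein that compacts the membrane, was higher in 5XFAD than in WT in 3 of the 4 genotype comparisons. In M WT NX it stood at 51.9, 47.4, 58.1, 65.5 and 87.6 CPM, and in M 5XFAD NX at 146, 275, 217, 142 and 131 CPM. All 5 transgenic libraries exceeded all 5 WT libraries. The log2FC was 1.57 (SE 0.23), with an FDR of 0.000434 in edgeR's quasi-likelihood test. Under CIH the male values were 49.0, 63.5, 52.9, 54.7 and 57.0 CPM in WT and 104, 134, 132, 180 and 150 CPM in 5XFAD, again without overlap. The log2FC was 1.37 (SE 0.13, FDR 9.48e-07). Scaled by library size alone it was 0.99 with an FDR of 2.34e-05, just under the fold limit.

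Female Mbp under CIH was 50.2, 41.0, 111, 53.2 and 52.2 CPM in WT and 112, 209, 169, 134 and 154 CPM in 5XFAD. The groups did not overlap, although F WT CIH 3 (111 CPM) lay next to F 5XFAD CIH 1 (112 CPM). Mbp rose with a log2FC of 1.33 (SE 0.24, FDR 0.000497). Under NX the WT females had 65.5, 104, 77.0 and 54.7 CPM, and the 5XFAD females had 146, 150.0, 144, 47.5 and 149 CPM. F 5XFAD NX 4 was the lowest of these 9 libraries. With it the log2FC was 0.76 (SE 0.30, FDR 0.103), and without it 0.95 (FDR 0.00117), with no overlap of the groups and still under the fold limit.

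CIH itself gave no called difference in Mbp. The log2FC of WT NX vs WT CIH was −0.25 (SE 0.28, FDR 0.96) in females and −0.17 (SE 0.14, FDR 0.363) in males. Without F WT CIH 3 the female value was −0.60 (SE 0.17, FDR 0.988), and over all 9 left-out libraries it ranged from −0.60 to −0.059. The male value ranged from −0.25 to −0.027 (without M WT NX 5). Between 5XFAD NX and 5XFAD CIH the log2FC was 0.31 (SE 0.26, FDR 0.998) in females, or 0.12 (FDR 0.858) without F 5XFAD NX 4. In males it was −0.39 (SE 0.22, FDR 0.995), from −0.49 to −0.17 with a library left out. The interaction term was 0.55 (SE 0.41, FDR 0.952) in females, or 0.37 (FDR 0.973) without F 5XFAD NX 4 and 0.89 (SE 0.35, FDR 0.982) without F WT CIH 3. In males it was −0.21 (SE 0.27, FDR 0.656), from −0.36 (FDR 0.420, without M WT NX 5) to −0.0087 with a library left out. A different genotype effect under NX and CIH was not shown.

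Mobp, a small basic protein of compact myelin, had the largest log2FC of the members in 3 of the 4 genotype comparisons, the exception being WT NX vs 5XFAD NX of females. Male WT NX libraries held 3.80, 2.66, 3.40, 5.32 and 11.6 CPM, and male 5XFAD NX libraries held 17.9, 68.0, 34.9, 23.6 and 22.8 CPM. The mean was 5.35 ± 3.61 CPM (SD, n = 5) in WT and 33.4 ± 20.3 CPM (SD, n = 5) in 5XFAD. The groups did not overlap, and the log2FC was 2.66 (SE 0.45, FDR 0.00129). Under CIH, male WT held 3.92, 7.22, 10.0, 6.69 and 4.78 CPM and male 5XFAD held 12.5, 23.4, 11.8, 31.1 and 23.3 CPM. These too did not overlap, with a log2FC of 1.68 (SE 0.29, FDR 0.000262). On log2(FPKM + 1), limma gave 1.00 for the latter, which is 0.997 before rounding and under the fold limit.

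In females Mobp was not called in either genotype comparison. Under CIH the WT libraries had 3.32, 1.75, 29.3, 4.00 and 3.21 CPM and the 5XFAD libraries had 8.53, 40.5, 26.2, 24.4 and 21.3 CPM. F WT CIH 3 was above 4 of the 5 5XFAD libraries, while its 4 companions were below all 5. The log2FC was 1.54 (SE 0.65, FDR 0.0635) with F WT CIH 3 and 2.98 (FDR 4.1e-05) without it, and it was 1.75 (FDR 0.0395) without F 5XFAD CIH 1. Under NX the WT females had 7.61, 20.005, 12.3 and 5.74 CPM and the 5XFAD females had 14.4, 19.3, 20.7, 4.70 and 20.6 CPM. The groups overlapped, and the log2FC was 0.49 (SE 0.44, FDR 0.447), or 0.71 (FDR 0.105) without F 5XFAD NX 4. Over all 9 left-out libraries it ranged from 0.27 to 0.90.

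Under treatment, Mobp did not pass in any comparison. The log2FC was −0.40 (SE 0.75, FDR 0.972) in WT females, 0.28 (SE 0.36, FDR 0.596) in WT males, 0.62 (SE 0.40, FDR 0.998) in 5XFAD females and −0.72 (SE 0.37, FDR 0.995) in 5XFAD males. With a library left out these ranged from −1.87 (without F WT CIH 3) to 0.012, from 0.079 to 0.76 (without M WT NX 5), from 0.36 to 0.84 and from −0.91 to −0.26, and none was called. The interaction was 1.02 (SE 0.90, FDR 0.952) in females and −0.99 (SE 0.56, FDR 0.272) in males. With a library left out, the female interaction ranged from 0.615 to 2.47 (SE 0.63, FDR 0.982, without F WT CIH 3). The male one ranged from −1.48 (SE 0.51, FDR 0.180, without M WT NX 5) to −0.56. None of these was called.

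**Figure D3:**
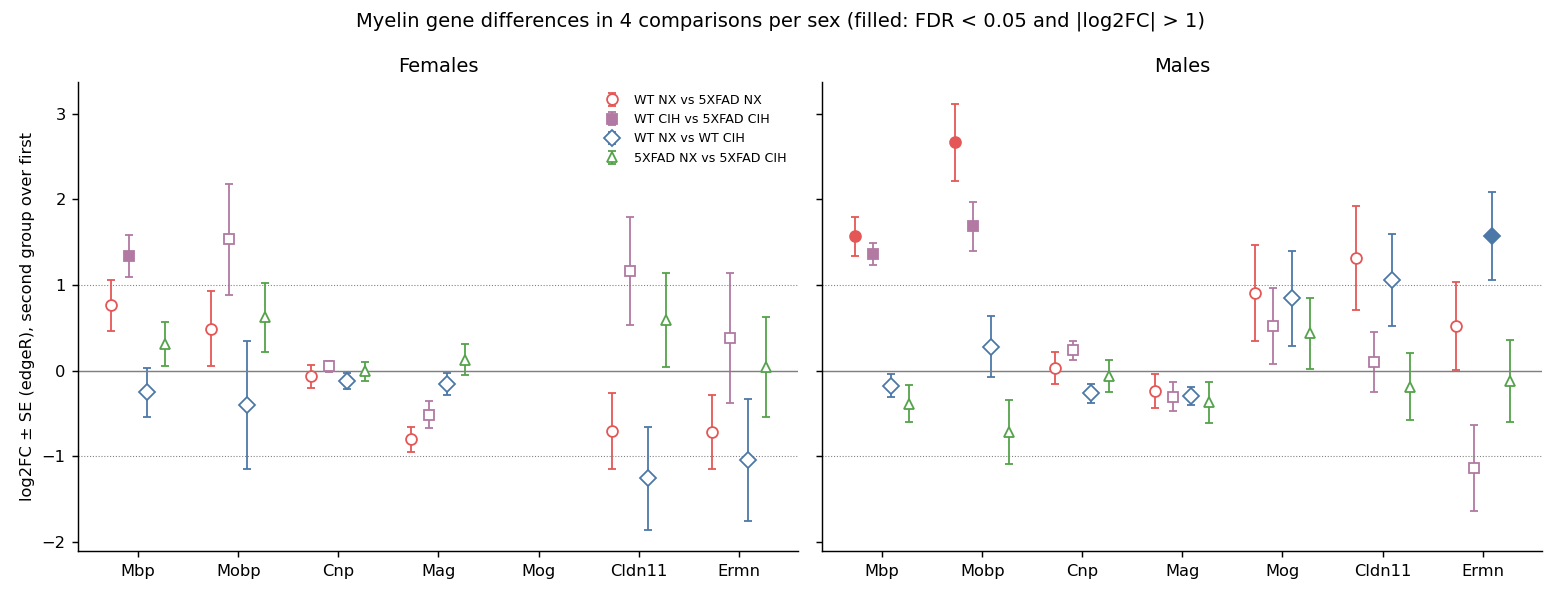
log2FC (second group over first) ± SE from edgeR for each gene in 4 comparisons, in females (left) and males (right). Filled symbols passed FDR below 0.05 and absolute log2FC above 1, dotted lines mark a log2FC of 1 and −1, and Mog has no point in females because it did not pass the filter on low counts.

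Mag, the glycoprotein that binds the axon, went the other way from Mbp and Mobp in females. Female WT NX libraries had 43.1, 37.1, 58.5 and 43.2 CPM and female 5XFAD NX libraries had 27.0, 24.6, 23.6, 28.7 and 23.3 CPM. Every 5XFAD library was below every WT library. F 5XFAD NX 4 was the highest of the 5XFAD libraries (28.7 CPM), with a TMM factor of 1.271, the largest among the female libraries. In FPKM, which uses no TMM, it stood at 14.6, close to the lowest WT library at 15.3. Its ratio of Mag to Cnp reads was 0.670, within the WT range. The mean was 45.5 ± 9.16 CPM (SD, n = 4) in WT and 25.4 ± 2.30 CPM (SD, n = 5) in 5XFAD. The log2FC was −0.80 (SE 0.15, FDR 0.0177), or −0.90 (FDR 0.000506) without F 5XFAD NX 4. It passed the FDR limit, as 6.61% of all genes did in the lower direction, and missed the fold limit. Leaving out single libraries moved its FDR between 0.000506 and 0.063.

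Under CIH, female Mag was 39.4, 33.4, 41.7, 41.6 and 43.4 CPM in WT and 21.2, 37.1, 37.0, 21.9 and 22.4 CPM in 5XFAD. F 5XFAD CIH 2 and 3 lay within the WT range and the other 3 below it. The log2FC was −0.51 (SE 0.16, FDR 0.0139), where 25.7% of all genes passed the FDR limit in the lower direction. In males the groups overlapped. M WT NX held 43.5 to 61.5 CPM and M 5XFAD NX 23.0 to 50.7 CPM (log2FC −0.24, SE 0.20, FDR 0.478), and M WT CIH held 32.7 to 44.2 CPM and M 5XFAD CIH 21.6 to 43.3 CPM (log2FC −0.31, SE 0.17, FDR 0.148). With a library left out, the male genotype log2FC ranged from −0.32 to −0.088 under NX and from −0.43 to −0.19 under CIH. For WT NX vs WT CIH in males the log2FC was −0.29 (SE 0.11, FDR 0.0511).

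Mog, a surface protein restricted to myelin, was near the limit of detection in females, with 0 to 24 reads and 0 to 1.24 CPM per library, and it passed the filter in no female comparison. The library with 0 reads, F WT CIH 1, allows a level of up to 0.172 CPM (3 counts, counting error only). With no filter its log2FC was −0.54 (SE 0.82, FDR 0.677) in WT NX vs 5XFAD NX and 0.53 (SE 0.65, FDR 0.677) in WT CIH vs 5XFAD CIH, neither beyond the spread between libraries. In males it ranged from 0.236 to 3.47 CPM in WT NX, 0.759 to 4.59 CPM in WT CIH, and from 1.41 to 3.96 CPM in 5XFAD NX and 1.54 to 7.13 CPM in 5XFAD CIH. All 4 ranges overlapped, and no male comparison passed (log2FC 0.91, SE 0.56, FDR 0.321 for WT NX vs 5XFAD NX, and 0.85, SE 0.55, FDR 0.273 for WT NX vs WT CIH). Without M WT NX 5 these values were 1.37 (FDR 0.144) and 1.30 (FDR 0.116), still not called.

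Cldn11, the tight junction protein of myelin, had wide spreads. In males it was 0.697 to 2.18 CPM in 4 libraries of WT NX and 7.80 CPM in M WT NX 5, against 2.21 to 7.24 CPM in WT CIH, 2.61 to 10.0 CPM in 5XFAD NX and 2.75 to 9.03 CPM in 5XFAD CIH. M WT NX 5 lay above the range of WT CIH and within the ranges of both 5XFAD groups. The log2FC was 1.32 (SE 0.61, FDR 0.167) for genotype under NX and 1.05 (SE 0.54, FDR 0.157) for WT NX vs WT CIH. Without M WT NX 5 they were 2.31 (FDR 0.00652) and 2.03 (FDR 0.00376), both past the call. In females Cldn11 was 1.95 to 8.58 CPM in WT NX, 0.458 to 3.32 CPM in WT CIH, 1.39 to 3.79 CPM in 5XFAD NX and 0.948 to 7.97 CPM in 5XFAD CIH, and no comparison was called. For WT NX vs WT CIH of females the log2FC was −1.26 (SE 0.60, FDR 0.96), from −1.62 to −0.71 with a library left out. Its female interaction was 1.85 (SE 0.88), with an unadjusted p of 0.0486 in edgeR's test and an FDR of 0.952.

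Cnp, the enzyme of the cytoplasmic channels, was not called in any comparison. In females the group means were 67.4 ± 7.98 CPM (SD, n = 4) in WT NX, 60.7 ± 6.09 CPM in WT CIH, 63.8 ± 13.2 CPM for 5XFAD NX and 62.8 ± 3.41 CPM for 5XFAD CIH (SD, n = 5 each). In males they were 85.9 ± 15.8, 72.3 ± 2.76, 87.1 ± 21.96 and 83.6 ± 14.6 CPM in the same order (SD, n = 5 each). The genotype log2FC lay between −0.06 and 0.24 in the 4 comparisons, with the lowest FDR in M WT CIH vs M 5XFAD CIH (0.0853). In each of the 4 its sign turned under another scaling or with a library left out, so no direction is given. For WT NX vs WT CIH in males the log2FC of Cnp was −0.26 (SE 0.11, FDR 0.0881), from −0.35 to −0.19 with a library left out.

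Ermn, the cytoskeletal protein of mature oligodendrocytes, was the single member called for treatment. M WT NX held 0.963, 1.00, 0.451, 0.337 and 1.16 CPM (5 to 20 reads), and M WT CIH held 0.569, 3.86, 2.07, 3.05 and 2.19 CPM (9 to 77 reads). M WT CIH 1 lay within the NX range and the other 4 lay above it. The log2FC was 1.57 (SE 0.51, FDR 0.0320). The call was lost in 6 of the 10 fits that left out 1 library, with an FDR of 0.0501 to 0.102 in those, so it rests on each of M WT NX 3 and 4 and M WT CIH 2, 3, 4 and 5. It was also lost in a joint fit of all 4 groups (1.56, FDR 0.0676), with the replicate block (1.49, FDR 0.0744) and by limma on log2(FPKM + 1), at 0.41 (FDR 0.0408, or 0.183 with no filter), and on log2(FPKM + 0.1), at 1.13 (FDR 0.0537). The likelihood ratio test and DESeq2 kept it. The opposite sign was found for genotype under CIH in males, with −1.14 (SE 0.50, FDR 0.0743). It passed the call at −1.39 (FDR 0.0198) without M WT CIH 1 and at −1.54 (FDR 0.0298) without M 5XFAD CIH 4. The interaction was −1.68 (SE 0.71, unadjusted p 0.0266 in edgeR's test, FDR 0.161). In females Ermn held 0.117 to 3.20 CPM over all 19 libraries, and no comparison was called. For WT NX vs WT CIH of females the log2FC was −1.04 (SE 0.71, FDR 0.96), from −2.003 to −0.57 with a library left out. No test between the sexes was made.

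The ratio of 2 members within a library does not depend on the scaling. The ratio of Mbp reads to Mag reads was 1.27 to 2.81 in F WT NX, 1.20 to 2.65 in F WT CIH and 4.58 to 6.88 in F 5XFAD CIH. In F 5XFAD NX it was 1.66 in F 5XFAD NX 4, within the WT range, and 5.40 to 6.38 in the other 4 libraries. In males it was 1.00 to 1.42 in WT NX, 1.11 to 1.75 in WT CIH, 3.11 to 5.69 in 5XFAD NX and 3.76 to 5.39 in 5XFAD CIH. With that 1 library aside, the genotypes did not overlap in either treatment or sex, and the treatments overlapped in each genotype. The ratio of Mag to Cnp reads was 0.612 to 0.748 in the WT females, 0.340 to 0.371 in 4 libraries of F 5XFAD NX and 0.670 in F 5XFAD NX 4. In F 5XFAD CIH it was 0.345 to 0.583, with F 5XFAD CIH 2 (0.558) and 3 (0.583) nearest to the WT values. In males it was 0.472 to 0.735 in WT NX and 0.399 to 0.525 in 5XFAD NX, which overlapped, and 0.473 to 0.621 in WT CIH and 0.316 to 0.458 in 5XFAD CIH, which did not. These ratios were chosen after the levels were seen and are given without a test.

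**Figure D4:**
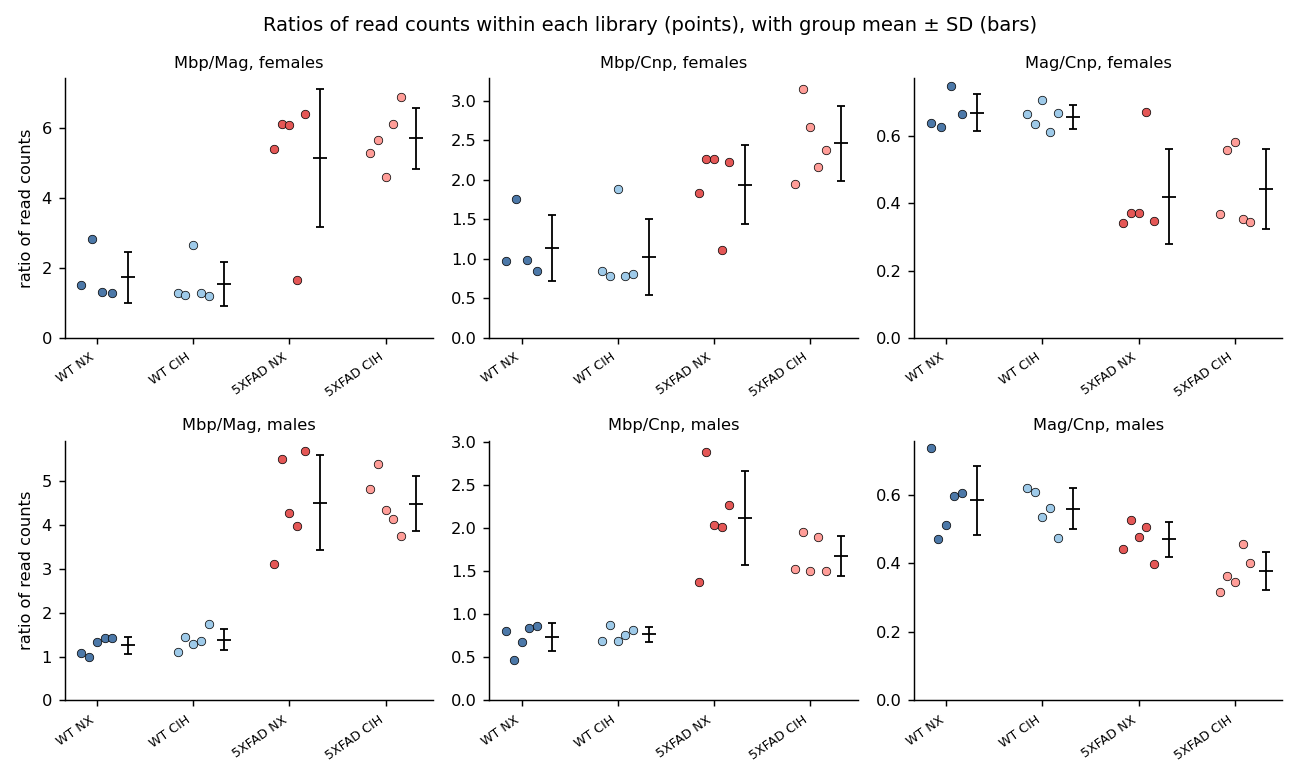
Ratios of read counts of Mbp to Mag, Mbp to Cnp and Mag to Cnp within each library (points) with the group mean ± SD (bars), females in the upper row and males in the lower. In females the ratio of Mbp to Mag reaches at most 2.81 in any WT library and is at least 4.58 in every 5XFAD library except F 5XFAD NX 4 (1.66). In males it reaches at most 1.75 in WT and is at least 3.11 in 5XFAD.

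Some libraries were extreme within their group for most members. M WT NX 5 was the highest of its 5 libraries for 7 of 7 members, F 5XFAD CIH 2 was the highest of its group for 6 and F 5XFAD CIH 1 the lowest for 6, and M 5XFAD NX 5 was the lowest for 6. As deviations from the group means, over 19 female libraries, the genes outside every list that were most like the summed members were Scd1 (Pearson r 0.93), S100b (0.92), 2900052N01Rik (0.92), Cpe (0.90) and Gpm6b (0.89). Over 20 male libraries they were Sdc4 (0.87), Ptgds (0.86), Tmem141 (0.84), Oaz2 (0.84) and Clec10a (0.84). The points share library, depth and scaling, and the sum holds the members themselves. Mbp had an r of 0.96 in females and 0.92 in males, and Mag had an r of 0.35 in females and 0.87 in males.

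The other oligodendrocyte genes gave 62 genes in 4 lists of sheath proteins, myelin lipids, transcription factors and precursors. In WT NX vs 5XFAD NX of females 1 of 40 tested was called higher and 0 lower, against 4.4% of all genes higher and 1.59% lower. Without F 5XFAD NX 4 it was 2 of 38 higher and 2 lower, against 7.16% and 6.13%. In WT CIH vs 5XFAD CIH of females 5 of 42 were higher and 1 lower, against 8.83% and 4.12%. In males 6 of 49 were higher and 1 lower under NX, against 5.94% and 2.31%, and 5 of 47 were higher and 0 lower under CIH, against 11.8% and 6.88%. These counts of a few genes are a description of the lists, and a share near that of all genes is not a result about them. Cspg4, a proteoglycan of precursors and pericytes, was called in all 4 of these comparisons, with a log2FC of 4.75 (SE 0.84, FDR 0.0175) and 5.18 (SE 0.33, FDR 4.73e-08) in females and 3.88 (SE 0.67, FDR 0.00142) and 5.18 (SE 0.36, FDR 5.31e-08) in males, whereas the precursor receptor gene Pdgfra, at 2.72 CPM or less, was not called. F 5XFAD NX 4 held 3.63 CPM of Cspg4 and the rest of its group 76.1 to 112 CPM, and without that library the log2FC was 5.03 (FDR 4.81e-06). Bcas1, a gene of newly formed oligodendrocytes, was higher in males under NX (4.56, SE 0.63, FDR 0.000269) and CIH (3.58, SE 0.43, FDR 9.68e-06). Plekhb1, of the sheath list, was higher in females under CIH (2.61, SE 0.57, FDR 0.00172). Tcf7l2, a Wnt pathway factor, was lower in females under CIH (−1.08, SE 0.07, FDR 4.54e-08) and in males under NX (−1.04, SE 0.16, FDR 0.000642).

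In WT NX vs WT CIH of males 3 of 45 list genes were called higher and 0 lower, against 1.63% and 0.881% of all genes, and the largest log2FC were those of the protease gene Adamts4 (2.57, SE 0.80, FDR 0.0256) and the precursor phosphatase gene Ptprz1 (2.05, SE 0.63, FDR 0.0244). Trf, the iron carrier transferrin, was called higher in M WT CIH vs M 5XFAD CIH (1.27, SE 0.16, FDR 1.25e-05). Olig1 and Olig2, factors of the lineage, were at most 5.65 and 1.94 CPM, Myrf was at most 6.37 CPM, Mal, Opalin, Ugt8a and Aspa were at most 17.9, 3.20, 5.89 and 2.48 CPM, and Sox10 was not called in any comparison.

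Some markers of other cell types differed with genotype beside these results. The 10 astrocyte genes summed to 146 to 209 CPM in M WT NX and 385 to 1016 CPM in M 5XFAD NX, and to 172 to 273 CPM in M WT CIH and 225 to 629 CPM in M 5XFAD CIH. In females the sums were 180 to 248 CPM in WT NX and 258 to 375 in 4 libraries of 5XFAD NX, all above the WT libraries, with 135 in F 5XFAD NX 4, and 162 to 214 in WT CIH and 228 to 665 in 5XFAD CIH. Of the 10, 3 were called higher and 0 lower in males under NX, 1 higher and 2 lower under CIH, 1 higher in females under NX and 4 higher under CIH, and 2 of 9 tested were called higher in WT NX vs WT CIH of males, the comparison in which Ermn was called. In females the genotype log2FC was positive for 5 of the 10 under NX (median −0.07) and 7 under CIH (median 0.90). In males it was positive for 8 under NX (median 1.11) and 4 under CIH (median −0.57). The higher sums in females under NX and males under CIH were thus not a rise of most of the genes. Gfap reached 738 CPM in males and 410.5 CPM in females, while the astrocyte channel gene Aqp4 was at most 6.31 CPM. The 11 neuronal genes summed to 10.7 to 59.8 CPM over all libraries, and Snap25 was called lower and Map2 higher in females under CIH and in males under NX.

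The 6 genes of border macrophages, which lie along vessels and in the meninges, summed to 169 to 316 CPM in F WT NX and 73.3 to 153 CPM in F 5XFAD NX, and to 134 to 278.5 and 65.8 to 125 CPM under CIH. In males they summed to 212 to 294 CPM in WT NX and 90.7 to 137 CPM in 5XFAD NX, and to 135 to 304 and 92.3 to 171 CPM under CIH. Of the 6, 5 were called lower in females under NX and 4 under CIH, and 4 in males under NX and 1 under CIH (Mrc1), with 0 higher. Of 10 microglial genes, 1 was called lower in females under NX (Tmem119) and 2 under CIH (P2ry12 and Tmem119), and in males 2 under NX (P2ry12 and Tmem119) and 2 under CIH (P2ry12 and Sall1), where C1qa was higher. Of 8 endothelial genes, Pecam1 was called lower and Flt1 higher in each of these 4 comparisons. In WT NX vs WT CIH of males 3 of 5 neutrophil genes were called lower (S100a8, S100a9 and Retnlg), with sums of 152 to 813 CPM in WT NX and 77.5 to 203 CPM in WT CIH. Without F 5XFAD NX 4, the genes called lower in females under NX were 5 of 6 border macrophage, 2 of 10 microglial, 2 of 10 astrocyte, 1 of 8 endothelial and 2 of 4 neutrophil genes, and 1 astrocyte and 1 endothelial gene were called higher, against 6.13% of all genes lower and 7.16% higher. The part of these cell types in the differences of the myelin genes was not tested.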

How the data were processed

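Counts and FPKM were deposited by the authors as one table of each kind per sex. The authors deposited raw counts per gene, without normalization, and the female FPKM values are counts over gene length and library total. Male FPKM use a library size 0.794 to 1.20 times the column total. The submitters' processing notes name HISAT2 and GRCm38 (mm10), and the counting tool is not given in the sources used here. Sample groups came from the labels.

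Each pair of groups was fitted in edgeR 4.0.16 (R 4.3.3, TMM, quasi-likelihood F test) after a filter that kept genes above 1 CPM in 3 or more compared libraries, and the interaction over the 4 groups of a sex. 1 CPM is 15 reads in the smallest female library and 13 in the smallest male library, which limits the low members. Alternatives were the likelihood ratio test, DESeq2 1.42.0, library size alone, other filters and thresholds, a joint fit, a block on the replicate number, limma 3.58.1 on log2(FPKM + 1) and log2(FPKM + 0.1), and each library left out. Members and gene lists were chosen with earlier results of these data known. Every member was named, with fixed lineage genes, up to 2 called list genes per direction and comparison, and 5 like genes per table. A few list genes are not reported here.

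The methods of the study state independent samples within each group and the labels do not name the animals, so p-values measure the spread between these libraries. The test was tried on data simulated from the real libraries. Of 200 genes given a log2FC of 1.5, it called 175 among 14540 genes for F WT CIH vs F 5XFAD CIH, 148 among 14370 genes for M WT CIH vs M 5XFAD CIH, and 144 among 15269 and 103 among 15391 genes for the female and male interactions, with 2 to 4 false calls.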

Additional observations from a re-analysis of the deposited data

Results flagged for a closer look

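Of 56 sets of a member in a group, 5 held a library whose gap to its nearest neighbour was large for the range of the group. The limit would flag about 1 in 20 sets of normal and independent values. These sets are CPM without a log and share libraries, so that rate does not measure chance here. In F WT CIH, replicate 3 was high for Mbp (110.56 CPM, next 53.2) and for Mobp (29.269 CPM, next 4.00). In F 5XFAD NX, replicate 4 was low for Mbp (47.479 CPM, next 144). In M WT NX, replicate 5 was high for Mag (61.455 CPM, next 47.5) and for Cldn11 (7.8047 CPM, next 2.18).

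Mobp in F WT CIH vs F 5XFAD CIH had a log2FC of 1.54 (FDR 0.0635) with F WT CIH 3 and 2.98 (FDR 4.1e-05) without it. Mbp in F WT NX vs F 5XFAD NX had a log2FC of 0.76 (FDR 0.103) with F 5XFAD NX 4 and 0.95 (FDR 0.00117) without it. Cldn11 passed the call in both WT NX comparisons of males once M WT NX 5 was left out (2.31, FDR 0.00652, and 2.03, FDR 0.00376). All FDR values are from edgeR's quasi-likelihood test.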

How the results depend on the processing

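Direction and side of the threshold were kept in 590 of 621 fits of a result under another setting and in 720 of 762 fits with a library left out. Members called in F WT NX vs F 5XFAD NX went from 0 to 1 by FDR alone. In F WT CIH vs F 5XFAD CIH they went from 1 to 2 by the likelihood ratio test, by FDR alone, with the replicate block and by limma on log2(FPKM + 1) and log2(FPKM + 0.1), and to 3 with no filter. In M WT CIH vs M 5XFAD CIH they went from 2 to 1 by limma on log2(FPKM + 1), with and without the filter. In M WT NX vs M WT CIH they went from 1 to 2 with no filter, and to 0 with an FDR limit of 0.01, a minimum of 10 counts per library, all 4 groups in a joint fit and all 3 limma fits. With a library left out they ranged from 1 to 2 in F WT CIH vs F 5XFAD CIH, from 0 to 2 in M WT NX vs M WT CIH, and from 2 to 3 in M WT NX vs M 5XFAD NX (Cldn11 added without M WT NX 5) and in M WT CIH vs M 5XFAD CIH (Ermn added without M WT CIH 1 or M 5XFAD CIH 4). The causes were not tested, apart from fewer genes or libraries where the setting itself removes them.

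The same numbers did not pair the libraries: in no comparison did every same-numbered pair have a correlation of deviations above 0.1. With the replicate block 2 members were called in F WT CIH vs F 5XFAD CIH (Mobp 2.06, FDR 0.0109), 2 in M WT NX vs M 5XFAD NX, 2 in M WT CIH vs M 5XFAD CIH, 1 in M WT NX vs M WT CIH (Cldn11 1.44, FDR 0.0358, in place of Ermn 1.49, FDR 0.0744) and 0 in the others. Genes called over all genes in F WT NX vs F 5XFAD NX were 869, 7 with the block and 27 to 1880 with a library left out.

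Library size alone moved the median log2FC of all genes from −0.02 to −0.17 in F WT NX vs F 5XFAD NX, from −0.02 to −0.21 in F WT CIH vs F 5XFAD CIH, from 0.02 to −0.16 in M WT NX vs M 5XFAD NX, from −0.06 to −0.43 in M WT CIH vs M 5XFAD CIH and from −0.04 to −0.21 in the M interaction. In M WT CIH vs M 5XFAD CIH, Mbp then stood at 0.99 and Ermn passed at −1.52 (FDR 0.0187). Signs turned for Cnp in F WT CIH vs F 5XFAD CIH (library size −0.14, limma −0.13, −0.14 and −0.13), in F 5XFAD NX vs F 5XFAD CIH (block 0.00643), in M WT NX vs M 5XFAD NX (library size −0.19, no filter −0.000666) and in M WT CIH vs M 5XFAD CIH (library size −0.14). They turned for Cldn11 in M WT CIH vs M 5XFAD CIH (library size −0.30) and for Ermn in F 5XFAD NX vs F 5XFAD CIH (block −0.23, limma −0.051, −0.27 and −0.051). With a library left out, the log2FC ranged from −0.14 to 0.019 (F WT NX vs F 5XFAD NX), −0.098 to 0.067 (F 5XFAD NX vs F 5XFAD CIH), −0.051 to 0.15 (M WT NX vs M 5XFAD NX) and −0.18 to 0.027 (M 5XFAD NX vs M 5XFAD CIH) for Cnp, −0.077 to 1.34 (F WT CIH vs F 5XFAD CIH), −0.42 to 0.31 (F 5XFAD NX vs F 5XFAD CIH) and −0.51 to 0.038 (M 5XFAD NX vs M 5XFAD CIH) for Ermn, −0.14 to 0.27 (M WT CIH vs M 5XFAD CIH) and −0.42 to 0.032 (M 5XFAD NX vs M 5XFAD CIH) for Cldn11, −0.23 to 0.037 (M interaction) for Mag, and −1.87 to 0.012 (F WT NX vs F WT CIH) for Mobp. Depth limits Mog and Ermn most, with 0 and 2 reads in the lowest library.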
